A study of Mus musculus with 4 samples.

Results

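The 667 promoters described here were those whose chromatin was about equally open in all 4 libraries of an ATAC-seq comparison of mdx and wild type muscle stem cells. They were picked by their values. A region was taken if it lay on an autosome, carried a gene name, had its centre at most 1000 bases from the gene's start, had a mean of at least 100 scaled reads over the 4 libraries, and had a highest library value of at most 1.2 times its lowest. Of 35019 regions in the table, 9731 were named autosomal promoters, 5543 of those had a mean of 100 or more, and 667 of the 5543 (12%) met the limit on the ratio of highest to lowest. The 667 regions belonged to 667 different genes. Because the 4 values themselves chose the members, their evenness is a description, and no test below is offered in its support.

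ATAC-seq uses the Tn5 transposase to cut and tag DNA that is not wrapped in compact chromatin, so the reads in a region follow how open it is. The cells were quiescent satellite cells, the resting stem cells of skeletal muscle, sorted by flow cytometry and treated with Tn5 straight after sorting. One group came from mdx mice, which lack the muscle protein dystrophin through a mutation carried in every cell and whose muscle goes through repeated damage and repair, and the other from wild type mice. Each group had 2 libraries here, while the design names 3 mice per condition. The sources used here give no age, strain or sorting gate. Nothing in the labels ties the libraries to separate animals, so the p-values below rest on a spread between libraries that may be technical.

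Promoters are the stretches next to a gene's start where RNA polymerase and its helper factors gather. Most genes that many cell types use have promoters rich in the dinucleotide CG, which stay free of DNA methylation and open whether or not the gene is strongly transcribed. Enhancers, in contrast, open and close with cell state. An open promoter therefore shows that the start is accessible and not how much RNA is made, and no RNA was measured here.

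The sequences shown first are the stretches just upstream of the start for the most even members. They are the 150 bases before the start, 5′ to 3′ along the gene, from RefSeq (GRCm38.p6, the same build as the mm10 of the files), for the 6 members with the lowest ratio that had an entry and had their start inside the region. Capitals mark matches to the short motifs listed further on.
Nsmce3: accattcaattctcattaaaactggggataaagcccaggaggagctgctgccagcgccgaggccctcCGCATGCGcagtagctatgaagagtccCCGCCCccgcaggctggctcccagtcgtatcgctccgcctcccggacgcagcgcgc
Dusp23: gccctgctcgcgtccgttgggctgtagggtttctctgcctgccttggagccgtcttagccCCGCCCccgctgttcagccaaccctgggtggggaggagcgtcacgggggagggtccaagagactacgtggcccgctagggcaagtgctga
Dyrk2: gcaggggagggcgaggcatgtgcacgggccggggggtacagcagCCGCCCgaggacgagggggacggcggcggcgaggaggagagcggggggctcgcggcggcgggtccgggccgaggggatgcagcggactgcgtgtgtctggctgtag
Ppil3: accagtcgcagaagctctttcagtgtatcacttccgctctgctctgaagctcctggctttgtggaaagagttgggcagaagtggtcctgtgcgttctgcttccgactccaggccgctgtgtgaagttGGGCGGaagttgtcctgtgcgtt
Rfx1: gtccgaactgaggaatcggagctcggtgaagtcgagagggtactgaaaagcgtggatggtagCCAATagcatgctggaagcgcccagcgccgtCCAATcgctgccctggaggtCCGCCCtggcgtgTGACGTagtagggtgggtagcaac
Lipt1: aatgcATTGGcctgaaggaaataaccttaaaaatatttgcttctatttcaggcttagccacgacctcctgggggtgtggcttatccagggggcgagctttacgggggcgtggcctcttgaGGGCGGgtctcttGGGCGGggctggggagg
A GC box (GGGCGG, or CCGCCC on the other strand), the site class bound by SP and KLF factors, stood in all 6. Rfx1 and Lipt1 also held a CCAAT box, and Nsmce3 held the NRF1 core CGCATGC on both strands, overlapping itself. Next come 3 of the members with the highest mean value, where Fam76b held CCAAT boxes and a TGACGT half-site, and Evi5l held 4 GC boxes. Zswim6 held TTTATA 33 to 28 bases before the start, which matches the TATA box TATAAA on the other strand only.
Fam76b: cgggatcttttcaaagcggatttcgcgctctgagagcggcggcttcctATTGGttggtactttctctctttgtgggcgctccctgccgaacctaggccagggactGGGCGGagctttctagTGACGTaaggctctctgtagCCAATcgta
Zswim6: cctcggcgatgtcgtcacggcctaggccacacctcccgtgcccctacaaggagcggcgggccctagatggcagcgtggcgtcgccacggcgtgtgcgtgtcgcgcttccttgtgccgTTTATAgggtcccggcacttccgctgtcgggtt
Evi5l: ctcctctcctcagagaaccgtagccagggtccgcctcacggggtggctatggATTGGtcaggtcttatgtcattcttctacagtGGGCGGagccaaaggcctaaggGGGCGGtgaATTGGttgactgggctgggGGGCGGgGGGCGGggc
The last pair was chosen after its values were seen. Cd82 is a surface protein of satellite cells, and Tpp1, a lysosomal peptidase, had the fewest CG dinucleotides among members meeting the same conditions, 2 in its 300-base window.
Cd82: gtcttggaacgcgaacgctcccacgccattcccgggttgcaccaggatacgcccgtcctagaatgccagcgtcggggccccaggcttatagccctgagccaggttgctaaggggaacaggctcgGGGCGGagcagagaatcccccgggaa
Tpp1: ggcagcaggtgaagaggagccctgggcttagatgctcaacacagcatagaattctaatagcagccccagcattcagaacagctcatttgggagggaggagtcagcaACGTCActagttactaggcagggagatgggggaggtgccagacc
In the order printed, the first 3 windows lie at chr7:64873041-64873190 on the minus strand, chr1:172632975-172633124 on the minus strand and chr10:118868904-118869053 on the minus strand, and the next 3 at chr1:58445487-58445636 on the minus strand, chr8:84066686-84066835 on the plus strand and chr1:37872069-37872218 on the plus strand. The windows of Fam76b, Zswim6 and Evi5l lie at chr9:13827566-13827715 on the plus strand, chr13:107890065-107890214 on the minus strand and chr8:4166417-4166566 on the plus strand, and those of Cd82 and Tpp1 at chr2:93462951-93463100 on the minus strand and chr7:105752236-105752385 on the minus strand.

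No motif match is a binding site by itself, and the letters are given as a description. The printed low-ratio members ran flat over a wide span of values. Nsmce3, a subunit of the SMC5/6 DNA repair complex, had 348 and 352 scaled reads in the 2 mdx libraries, against 343 and 349 for wild type, each in the order of the replicate numbers. Dusp23, a protein phosphatase, had 980 and 977 in mdx and 950 and 956 in wild type. Rfx1, a transcription factor, had 608 and 604 in mdx and 622 and 601 in wild type. In each the highest value was under 1.04 times the lowest. The groups overlapped in Nsmce3 and Rfx1, and in Dusp23 both mdx libraries lay above both wild type libraries.

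Nnt, the mitochondrial transhydrogenase that makes NADPH, had the lowest ratio of all members, 1.02. Its region at chr13:119408663-119409625 held 174 and 175 in mdx and 172 and 175 in wild type. Zfpm2, a cofactor of GATA factors, had 200 and 195 against 198 and 199. Dyrk2, a protein kinase, had 484 and 490 against 474 and 480. The spread of these 3 was under the counting SD of mdx replicate 1 at their level. Socs6, a suppressor of cytokine signalling, had 603 and 608 in mdx and 624 and 619 in wild type, so its groups did not overlap although its ratio was 1.03. Gm5444, one of 2 members that are not protein coding in the deposited annotation, had 855 and 839 against 860 and 865. Gnaz, a G protein subunit, had 239 and 242 against 242 and 234, and Ppil3, a prolyl isomerase, had 120 and 119 against 117 and 116. Ratios of at most 1.05 were met by 27 members, at most 1.1 by 129, and at most 1.15 by 324, so most members had a ratio nearer to the limit than to 1. The median was 1.152, beside 1.46 over the 5543.

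**Figure D1:**
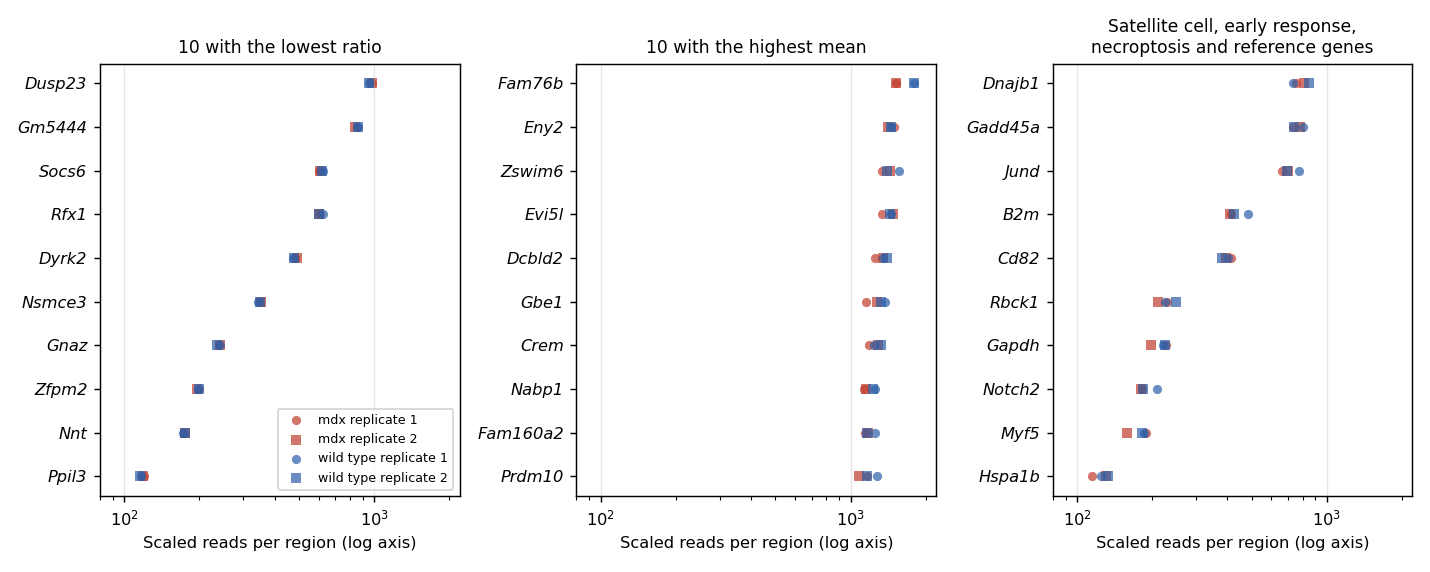
Scaled reads per region (log axis) in each of the 4 libraries for the 10 members with the lowest ratio, the 10 with the highest mean, and the members among satellite cell, early response, necroptosis and reference genes. The symbols of each gene lie close together, with ratios under 1.04 in the left panel, and Fam76b on top of the middle panel with both wild type values above both mdx values.

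At the limit itself, 5 members with a ratio of 1.2 were Rrm2, Smim10l1, Spdl1, Timm44 and Zfp263. Rrm2, a subunit of ribonucleotide reductase, had 180 and 185 in mdx and 204 and 216 in wild type. The nearest promoters left out, each with a ratio of 1.201, were those of Nars2, Npc1, Phtf1, Brd2 and Ccdc85c. Brd2, a reader of acetylated histones, had 174 and 192 in mdx and 183 and 209 in wild type. The limit thus cuts through a continuous distribution, with promoters on its 2 sides that are hardly apart.

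**Figure D2:**
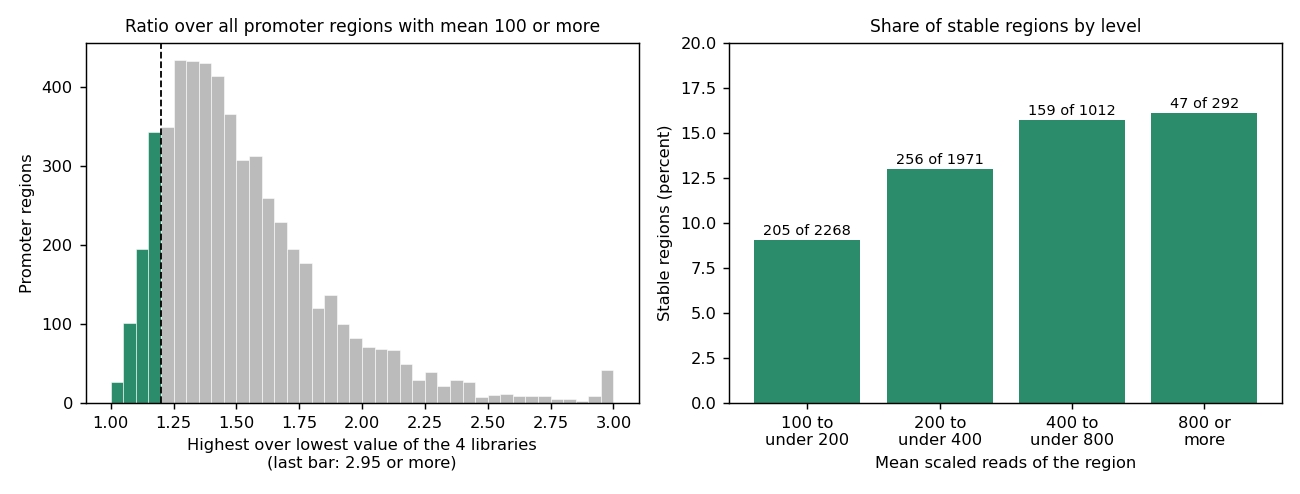
Left, number of promoter regions by ratio of highest to lowest library value, with the limit of 1.2 dashed and members in green. Right, share of regions that are members at each level of mean scaled reads, rising from 205 of 2268 at means of 100 to under 200 to 47 of 292 at 800 or more.

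The share of regions taken moved with their level. Of regions with a mean of 100 to under 200, 205 of 2268 (9.04%) were members, against 256 of 1971 at 200 to under 400, 159 of 1012 (15.7%) at 400 to under 800 and 47 of 292 (16.1%) at 800 or more. Depth differed between libraries. Dividing the deposited values by each library's scaling factor gave 3208372 and 3607412 reads in regions for the mdx libraries, and 3693435 and 8166242 for those of wild type. A value of 100 carried a counting SD of 11.8% and 10.8% for mdx and 11.05% and 7.01% for wild type, which covers counting error only. At a value of 1000 it was 3.72%, 3.41%, 3.50% and 2.22%. At a value of 100, the gap that the limit allows was therefore under 2 counting SDs of an mdx library. The part of depth in the choice of members was not tested.

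Members had a mean of 283 scaled reads at the median, from 100.5 to 1657, and 22 had a mean of 1000 or more. These values are per region and not per length. Fam76b, whose region also holds the start of the neighbouring gene Cep57 on the other strand, had the highest: 1517 and 1516 in mdx and 1796 and 1798 in wild type. Eny2, a subunit of the SAGA coactivator, had 1488 and 1411 in mdx and 1454 and 1459 in wild type. Zswim6 had 1331 and 1445 against 1560 and 1401. For Eny2 and Zswim6 the groups overlapped, while in Fam76b both mdx libraries lay below both wild type libraries. Evi5l had 1342 and 1475 against 1459 and 1437, and Dcbld2, a membrane protein, had 1256 and 1347 against 1344 and 1396. Gbe1, the glycogen branching enzyme, Crem, a CREB family factor, Nabp1, which binds single-stranded DNA, Fam160a2 and Prdm10 completed the 10 highest, with means between 1171 and 1281.

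In the comparison of mdx with wild type over all regions, limma tested 33161 regions and called 1387 (4.18%), 1095 higher in mdx (3.3%) and 292 lower (0.881%), at an adjusted p under 0.05. Of the 667 members, all tested, limma called 0, and 0 had an unadjusted p under 0.05, where 23% of all tested regions did. The rule used the same values, so nothing is read from this. The members' log2 fold changes (mdx over wild type, computed on log2(value + 1)) ran from -0.25 to 0.23 with a median of -0.04. Over all 5543 promoters at this level the median was -0.25, over the 4876 that were not members it was -0.29, and over all tested regions it was -0.01.

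**Figure D3:**
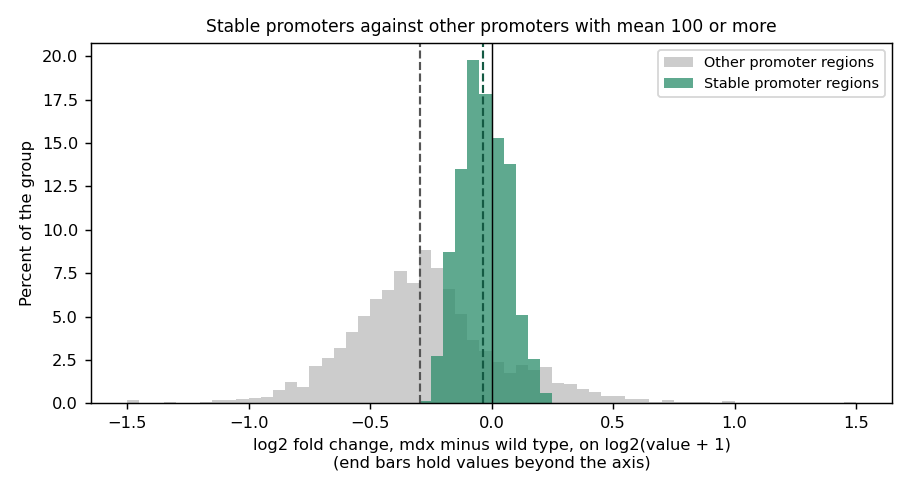
Distribution of the log2 fold change between mdx and wild type, in percent of each group, for the 667 members (green) and the 4876 other promoters with a mean of 100 or more (grey), with dashed lines at the medians of -0.04 and -0.29. The members form a narrow peak near 0, while most of the grey distribution lies to its left.

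Most strong promoters were thus lower in mdx on the deposited scale, and the members were those that stood level with it. Of the 4876 others, 4083 (83.7%) had a lower mean in mdx and 783 a higher one. Of the members, 412 (61.8%) had a lower mean in mdx, 245 a higher one and 10 equal means. With each library scaled to the same autosomal total, the lower mdx means were 3939 of the 4876 and 309 of the 667, so the members' balance turned. With promoter medians set equal they were 3003 and 4, and after cyclic loess 3637 and 164. The 4 libraries had medians of 274, 277, 282 and 280 over the members, in the order mdx replicates 1 and 2 and wild type replicates 1 and 2. Over the other promoters they were 202, 215, 264 and 232. Wild type replicate 1 was the highest library in 259 members and mdx replicate 1 the lowest in 242, the same pair of libraries that stood apart over the other promoters.

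Evenness was therefore evenness relative to the deposited scaling. When the medians of named autosomal promoters, 108, 117, 140 and 123 as deposited, were set equal between the libraries, 199 of the 667 still had a ratio of at most 1.2, and the members' median log2 fold change became 0.19 beside 0.21 over all regions. After cyclic loess, which removes a trend with level, 390 of the 667 did, and their median became 0.10. Under the promoter scaling Nnt had a ratio of 1.31, Eny2 1.33 and Cd82 1.34, while Fam76b had 1.14, Rps23 1.12 and B2m 1.104. The first 3 left the set and the last 3 stayed in it. Which scale matches the amount of open chromatin per cell was not measured.

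Even within the limit, some members had groups that did not overlap. Both mdx libraries lay below both wild type libraries in 186 members and above them in 79, and the groups overlapped in 402. Over all tested regions, 25.9% had both mdx libraries below and 26.8% above. Chordc1, a partner of the chaperone HSP90, had the lowest mdx mean relative to wild type: 520 and 521 in mdx against 623 and 618 in wild type, a ratio of the group means of 0.839. Suclg2, a mitochondrial succinyl-CoA ligase subunit, had the highest, with 216 and 217 against 187 and 183, or 1.17. These are the members with log2 differences of -0.25 and 0.23. Slc36a4, an amino acid transporter, and Zfp777 also had higher mdx means, 165 against 142 and 148.5 against 127.5.

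A promoter can also be even within each group and differ between them. Of the 5543, both pairs of replicates lay within 1.2 times of each other in 2099, and 667 of these (31.8%) were the members. The other 1432 were even within each group but not over all 4 libraries, with a lower mdx mean in 1218 and a higher one in 214. The groups did not overlap in 1116 of these with mdx lower and 174 with mdx higher. Limma called 50 of the 1432 lower and 4 higher, beside 0.881% and 3.3% of all tested regions. The 1432 were picked by the same values for even pairs and a gap over all 4 libraries, so nothing is read from these counts. Early response genes gave an example of each kind. Jund, an AP-1 subunit, had 662 and 699 in mdx and 771 and 691 in wild type, and was a member. Jun, another AP-1 subunit, had 1689 and 1932 against 2912 and 2442, a log2 difference of -0.56 that passed limma's test (adjusted p = 0.0356). Whether Jund differed from Jun was not tested.

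Of 21 promoter regions at this level for genes of satellite cell identity and quiescence, 3 (14.3%, beside 12% over all promoters) were members: Cd82, Notch2 and Myf5. Cd82 had 415 and 395 in mdx and 401 and 382 in wild type. Notch2, a receptor of the pathway that keeps satellite cells quiescent, had 182 and 180 against 209 and 183. Myf5, a myogenic transcription factor, had 189 and 159 against 186 and 182 in a region at chr10:107486663-107487055, centred 725 bases upstream of its start. The groups overlapped in Cd82 and Myf5, and in Notch2 the highest mdx value lay 1 read below the lowest wild type value. A second Myf5 region, centred 150 bases from the start, had 214 and 218 in mdx and 241 and 189 in wild type and was not a member, with a ratio of 1.28. The list's median log2 fold change was -0.26, beside -0.25 over all promoters at this level. Limma called 1 of the 21 higher and 1 lower, beside 3.3% and 0.881% of all tested regions, too few calls to compare.

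Among early response and stress genes, 4 of 24 were members. Besides Jund these were Gadd45a, a growth arrest and DNA damage gene, Dnajb1, a co-chaperone of HSP70, and Hspa1b, an inducible HSP70. Gadd45a had 735 and 780 in mdx and 805 and 738 in wild type. Dnajb1 had 749 and 813 against 735 and 845. Hspa1b had 115 and 130 against 125 and 133, and since Hspa1a is a near-identical copy, how reads were divided between them is uncertain. All 4 overlapped between groups. Of 16 promoters of the necroptosis machinery, the programme of regulated necrotic death that the study's title names, 1 was a member: Rbck1, a subunit of the linear ubiquitin ligase complex, with 229 and 211 in mdx and 224 and 249 in wild type. Of 5 promoters of NuRD, a chromatin remodelling and deacetylase complex, 0 were members, beside 12% of all promoters. Their median log2 fold change was -0.53, beside -0.25 over all promoters at this level. With promoter medians set equal, 0 of these 5 had a ratio of at most 1.2, and after cyclic loess 2 of 5 did.

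Of 12 promoters of genes often used as references, 2 were members. B2m, the light chain of MHC class I, had 413 and 411 in mdx and 485 and 426 in wild type, and Gapdh, a glycolytic enzyme, had 227 and 198 against 221 and 225. A second Gapdh region 832 bases from the start had 258 and 194 against 292 and 281 and was not a member.

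Of 31 cytosolic ribosomal protein promoters, 5 were members (Rpl7, Rps23, Rps6, Rps19 and Rps3a). A list of translation factors and related genes gave 4 of 33 (Eef1e1, Eif3m, Eif4e2 and Eif2ak2). Not all of these are translation factors proper, and Eif2ak2 also counts as an interferon response gene. Aminoacyl-tRNA synthetases and their partners gave 3 of 14 (Yars2, Nars and Aimp2). Rpl7 had 782 and 802 in mdx and 825 and 835 in wild type, and Rps6 387 and 389 against 441 and 404. Yars2, which charges mitochondrial tRNA with tyrosine, had 278 and 285 against 291 and 301. In these 3 both wild type libraries lay above both mdx libraries within the limit. Mitochondrial ribosomal protein genes gave 1 of 21 (Mrpl34, with 239 and 247 against 247 and 260), and oxidative phosphorylation genes 1 of 30 (Ndufaf2, an assembly factor of complex I, with 392 and 436 against 443 and 419). These shares, 4.76% and 3.33% beside 12% of all promoters, turned to 28.6% and 23.3% beside 20.4% with promoter medians set equal, and were 28.6% and 10% beside 18.6% after cyclic loess. Proteasome subunits gave 0 of 18 and RNA polymerases I and III 0 of 10. With promoter medians set equal these were 2 of 18 and 2 of 10.

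**Figure D4:**
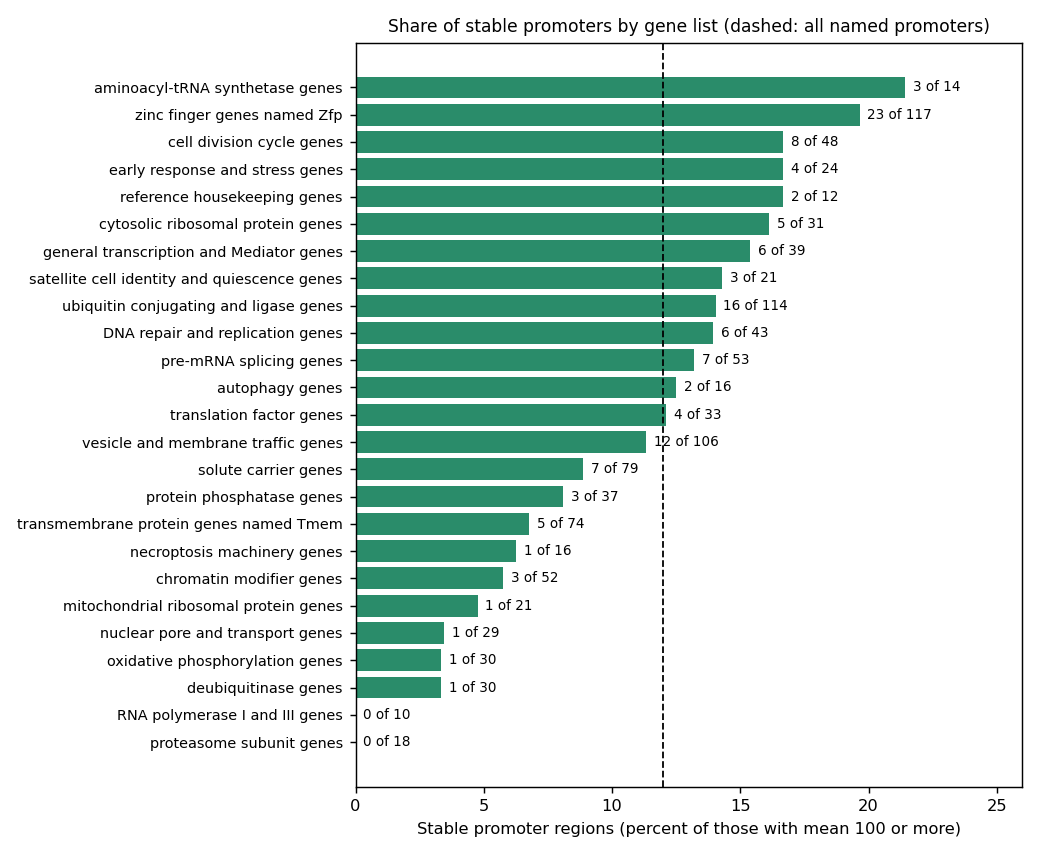
Percent of promoter regions with a mean of 100 or more that are members, for the lists described here with at least 10 such regions, with the dashed line at 12% for all 5543 and the counts beside the bars. The lists range from 3 of 14 for aminoacyl-tRNA synthetase genes to 0 of 18 for proteasome subunits, and most lists rest on few regions. The shares and their order hold for the deposited scale. With promoter medians set equal, aminoacyl-tRNA synthetase genes gave 1 of 14 and reference genes 5 of 12, beside 20.4% of all promoters. After cyclic loess they gave 3 of 14 and 2 of 12, beside 18.6%.

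For genes of RNA production and of nuclear upkeep, shares on the deposited scale ran from 5.77% for chromatin modifiers to 16.7% for cell division, beside 12% of all promoters. Splicing gave 7 of 53, led by Hnrnpdl, an RNA-binding protein, with 545 and 521 in mdx and 552 and 584 in wild type. General transcription and Mediator gave 6 of 39, among them Taf15, a TFIID-associated protein, with 366 and 353 against 374 and 344. DNA repair and replication gave 6 of 43, with Xrcc4, a factor of end joining, at 839 and 870 against 958 and 906. Fancf, of the Fanconi anaemia core complex, had 766 and 658 against 656 and 742, high in 1 library of each group. Cell division cycle genes gave 8 of 48, with Mad2l1, a spindle checkpoint protein, at 861 and 831 against 939 and 823, and Plk2, a polo-like kinase, at 732 and 697 against 746 and 744. Chromatin modifiers gave 3 of 52: Smarca2, an ATPase of the SWI/SNF remodeller, Kmt5c, a histone H4 lysine methyltransferase, and Kdm4a, a histone demethylase. Kmt5c had 622 and 665 in mdx and 640 and 654 in wild type.

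The list of ubiquitin conjugating enzymes and ligases gave 16 of 114 (14.0%, beside 12% over all promoters), including the cullins Cul2 and Cul4a, Rnf122, Trim23 and Fbxo8. Rnf122 had 608 and 626 in mdx and 657 and 626 in wild type. Deubiquitinases gave 1 of 30 (Usp21) and autophagy genes 2 of 16 (Map1lc3a and Gabarapl2, members of the Atg8 family). Vesicle and membrane traffic gave 12 of 106 (11.3%), with the small GTPase Rab30 at 998 and 986 against 1164 and 1051. Nuclear pore and transport genes gave 1 of 29 (Nup62), phosphatases 3 of 37, solute carriers 7 of 79 and genes named Tmem 5 of 74. Tbx15, a T-box factor of limb and skeletal development, had 223 and 203 in mdx and 200 and 189 in wild type, with both mdx libraries above both wild type libraries. Collagen and matrix genes gave 0 of 9, and sarcomere and contraction genes 0 of 3.

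Zinc finger genes named Zfp, most of which encode DNA-binding proteins of the KRAB or related families, gave 23 of 117 (19.7%). Their median log2 fold change over all 117 was -0.05, beside -0.25 over the 5543, and 41.0% of them had a higher mdx mean, beside 18.1% of the promoters outside the list. With promoter medians set equal the order turned, to 15.4% of Zfp promoters beside 20.4% of all, and after cyclic loess the shares were 19.1% and 18.6%. By level the counts were 9 of 62 at means of 100 to under 200 (8.88% of other promoters), 13 of 42 at 200 to under 400 (12.6%), 1 of 12 at 400 to under 800 (15.8%) and 0 of 1 at 800 or more (16.2%). The higher levels hold too few Zfp promoters to tell whether the order differs there. The Zfp members were unevenly spread. Chromosome 8 held 7 of the 23 (Zfp1, Zfp330, Zfp868, Zfp930, Zfp958, Zfp963 and Zfp964) among 13 Zfp promoters there, beside 16.4% of all its promoters. Chromosome 17 held 0 among 15, and chromosome 7 held 4 among 24. Zfp868 had 412 and 486 in mdx and 425 and 490 in wild type, and Zfp963 had 412 and 410 against 352 and 408. Such genes lie in clusters of similar copies, and the sources used here do not say how reads that match several copies were handled.

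The 30 lists held 128 of the 667 genes, and 539 lay in none. The following were picked from those or from the extremes after their values were seen, and are given as examples. Ctsl, a lysosomal protease, had 408 and 392 in mdx and 435 and 432 in wild type, and Lgmn, the lysosomal protease legumain, had 218 and 234 against 215 and 223. Arl13b, a GTPase of the cilium, had 1037 and 1118 against 1244 and 1161, and Ttc21b, a ciliary transport protein, had 886 and 866 against 933 and 873. Kif11, a mitotic kinesin, had 252 and 245 against 285 and 269. Rsad2 and Cmpk2, interferon-induced neighbours on chromosome 12 whose regions lie 13177 bases apart, had 228 and 266 against 253 and 257, and 297 and 279 against 258 and 278. Ddit3, the stress factor CHOP, had 257 and 272 against 258 and 274. Clock, a core circadian factor, had 542 and 576 against 633 and 647. In Ctsl, Arl13b, Kif11 and Clock both wild type libraries lay above both mdx libraries, in Cmpk2 both lay below, and in Lgmn, Ttc21b, Rsad2 and Ddit3 the groups overlapped.

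The members' regions differed little from those of the other promoters in width and position. Their width had a median of 706 bases, from 264 to 1907, beside 670 for the others, and within the 4 levels the medians were 572 beside 573, 707.5 beside 692, 804 beside 818 and 889 beside 1001. The widest were those of Phip, a chromatin reader of the bromodomain class, Rpl7, Hnrnpdl, Dyrk2 and Cited2, and the narrowest those of Wdr61, Mkks, Tagln2, Os9 and Peg3. The centre lay within 100 bases of the start in 334 members (50.1%) beside 51.1% of the others, downstream of it in 57.9% beside 57.6%, and the region covered the start in 628 (94.2%) beside 93.4%. Starts of genes on both strands lay in 102 member regions (15.3%) beside 713 of the others (14.6%). Examples of such shared promoters were Fancf with Gas2, Ndufaf2 with Ercc8, and Trim23 with Shld3 and Trappc13. In a shared region the value cannot be assigned to either gene.

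**Figure D5:**
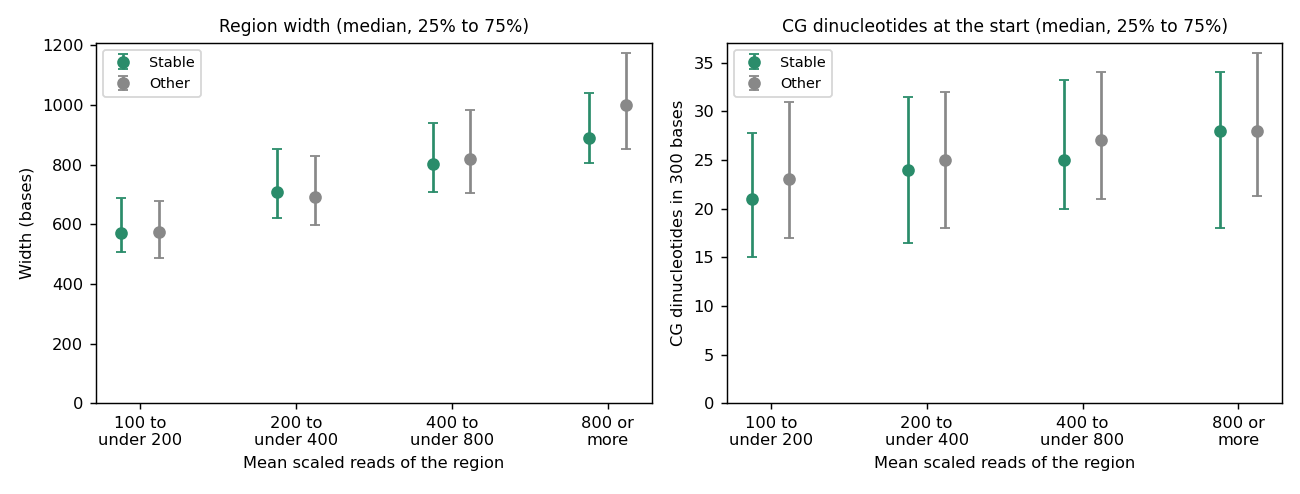
Median region width in bases (left) and median number of CG dinucleotides in the 300-base promoter window (right) by level of mean scaled reads, with bars from the 25% to the 75% point, for members (green) and other promoters (grey). The medians of width lie close at the 3 lower levels, at 572, 707.5 and 804 for members, and both measures rise with level in both groups.

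RefSeq promoter windows, from 250 bases before to 50 after the start, were found for 542 of the 667 members and 3791 of the 4876 others. The share matched among the others is below 80%, so the comparison holds for matched promoters and not for all. Members had a median of 23 CG dinucleotides per window and 62.7% GC, the others 25 and 64.3%, and all 32817 RefSeq windows 7 and 52.7%. At least 10 CG dinucleotides were held by 94.5% of members, 95.1% of the others and 43.5% of all windows. CG-poor windows were the exception: those of Gbp3, an interferon-induced GTPase, and Tpp1 held 2, and those of Ctnnd1, Cast, Tek and Myf5 held 3. The windows were placed at the gene's start, so they need not overlap the member region. The Myf5 member region, centred 725 bases upstream, did not cover its start, and its own sequence was not read. At the other end Afdn, a junction protein, held 62, and Ski, Slk and Foxk2 59.

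For 12 motifs the windows were searched on both strands with exact letters, and no motif lies inside another. The ETS factor core CCGGAAG was held by 23.1% of members, 18.7% of the others and 8.86% of all RefSeq windows. The GC box GGGCGG was held by 75.3%, 76.8% and 35.6%, and the CCAAT box by 43.7%, 42.4% and 37.4%. The CREB half-site TGACGT was held by 16.4%, 14.0% and 7.51%, and the NRF1 core CGCATGC by 5.35%, 7.57% and 3.57%. Most promoters at this level, members or not, were thus of the GC-rich kind. Pooled over levels, the shares of members and others lay within 5 percentage points of each other. Within single levels some gaps were wider, in both directions. At means of 400 to under 800 the CREB half-site was held by 21.1% of members and 13.2% of others. At 800 or more, with 33 matched members, the CCAAT box was held by 48.5% and 56.2%. The remaining shares for members, others and all windows were 6.09%, 6.96% and 6.34% for the YY1 core AAGATGG, 10.2%, 10.4% and 7.15% for the E-box CACGTG, and 5.72%, 5.01% and 13.6% for the TATA box TATAAA. For the AP-1 site TGANTCA they were 3.51%, 3.53% and 7.81%, and for the element CTCGCGA 4.24%, 4.91% and 1.93%. The ZNF143 core ACTACAA gave 3.51%, 4.38% and 3.24%, and the E2F core TTTCCCG 8.49%, 6.54% and 3.39%. The GC boxes, CCAAT boxes and NRF1 core stand in capitals in the printed stretches of Nsmce3, Rfx1 and Evi5l.

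Along the genome, the share of members ran from 12 of 183 promoters (6.56%) on chromosome 15 to 54 of 330 (16.4%) on chromosome 8. Without the Zfp promoters, chromosome 8 gave 47 of 317 (14.8%), below chromosome 13 with 37 of 236 (15.7%). Pairs of neighbouring members within 50 kb numbered 24. One was Nnt with Paip1, a translation regulator that had 377 and 380 in mdx and 369 and 353 in wild type. Rnf122, Tti2 and Mak16 followed one another on chromosome 8. Tti2 had 348 and 329 against 354 and 314, and Mak16 had 232 and 254 against 241 and 231.

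Of the member genes, 44 had another region linked to them in the table, 47 regions in all, and limma called 2 of these higher in mdx and 0 lower, beside 3.3% and 0.881% of all tested regions. The Necap1 promoter was a member, and a region centred 4470 bases upstream of its start, at chr6:122869871-122870136, had 113 and 66 scaled reads in mdx against 11 and 23 (log2 difference 2.36 ± 0.45 SE, adjusted p = 0.0174, limma). The Sh3bp5l region at chr11:58334811-58335016, inside the gene, had 51 and 22 against 2 and 6 (2.92 ± 0.69 SE, adjusted p = 0.0365, limma). In both, the groups did not overlap. A called higher region lay within 50 kb of 28 members (4.20%) and of 170 others (3.49%), and a called lower one within 50 kb of 4 members (0.600%) and 66 others (1.35%). Among genes with a second promoter region, Zfpm2 had 369 and 237 in mdx and 288 and 299 in wild type at its main start, with a ratio of 1.56, while its member region 983 bases away was even. Tagln2, an actin-binding protein, had 297 and 251 against 195 and 191 at its second region and 108 and 94 against 109 and 96 at the member.

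Markers of the labelled cell type and of others the sort could hold gave this background. Promoter regions were listed for 10 of 14 satellite cell markers, with a median mean of 202.8 and sums of 2583 and 2653 in mdx against 3410 and 3005, and for 0 of 7 immune and 0 of 4 glial markers. For endothelial cells 1 of 6 was listed, Tek, which was itself a member with 152 and 131 in mdx and 131 and 146 in wild type. For fibro-adipogenic progenitors 5 of 9 were listed, with sums of 343 and 350 in mdx and 185 and 221 in wild type. Smooth muscle and pericyte markers gave 3 of 6, with sums of 309 and 249 against 194 and 253, and myonuclear markers 2 of 9, with sums of 318 and 461 against 519 and 437. Mitochondrial DNA took 17.7% and 13.7% of the summed values in mdx and 14.1% and 9.31% in wild type. The part of other cells and of library quality in which promoters were even was not tested.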

How the data were processed

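ATAC-seq values of 4 libraries, 2 mdx and 2 wild type, were analysed, grouped by their labels. The submitters' processing notes name DESeq, DESeq2, MACS2 2.1.0, Picard 2.9.0, STAR 2.5.3a and Trimmomatic 0.33, with mm10 as the build. What each did, and how duplicates and the Tn5 offset were treated, is not stated there. The authors deposited 1 value per region and library, treated as a score: reads multiplied by 1 factor per library and rounded. The factors, read from which whole numbers do not occur or occur more often, were 1.382, 1.162, 1.222 and 0.492. The deposited fraction of a region inside the gene body and the deposited distance to the start were used as given, and whether coordinates start at 0 or 1 is not stated.

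The members and gene lists were chosen with earlier results of these data known. Regions with at least 10 in 2 or more libraries were tested with limma 3.58.1 (R 4.3.3), with an intensity trend, on log2(value + 1), with Benjamini-Hochberg adjustment at 0.05. The values are not raw counts, so no count test was run. On simulated data limma called 3 of 50 regions changed 2-fold, 46 of 50 changed 4-fold and 0 of 32722 unchanged. The simulation gave all libraries the same depth, a fixed dispersion of 0.03 and 200 changed regions. Depth differed between the real libraries, so these rates need not hold for them. Named genes are the 10 members with the highest mean, the 10 with the lowest ratio, 5 on either side of the limit, the 3 strongest of each list, all members among satellite cell, early response, necroptosis and NuRD genes, and the 5 widest and narrowest. Other genes were chosen after their values were seen. The results of 2 genes and their lists are not reported here. No sequence from chromosome 18 is printed. Starts and sequences came from RefSeq (GRCm38.p6), matched by symbol or synonym and by a start within 1000 bases of the region's centre. Alternatives covered the limits, scaling, filter, pseudocount, replicate block and left-out libraries.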

Additional observations from a re-analysis of the deposited data

How the results depend on the processing

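The number of stable promoters, 667 as given, was 129 with a ratio limit of 1.1, 1450 with 1.3 and 3093 with 1.5. It was 1127 with promoter medians set equal (199 shared with the 667) and 1020 after cyclic loess (386 shared), while scaling to the autosomal total gave 757 (542 shared). Leaving out 1 library, with the ratio over the other 3, gave from 996 to 1572, more because fewer values enter the ratio. The limits on mean and distance gave 462 to 750. Limma's 1387 changed regions became 458 with no filter on low values, 2219 with promoter medians set equal (2070 higher, 149 lower) and 2245 after cyclic loess. Leaving out any 1 library gave 0 changed regions, with 2305 to 5569 at an unadjusted p under 0.05, and the lone library was assumed to vary like the other group. Among the 667, limma called 1 after cyclic loess (Ascc3, log2 difference 0.43, adjusted p = 0.0449) and 0 under the other alternatives, including 0 without each library in turn. With the replicate block, 2761 regions changed and 0 of the 667. The labels do not say whether equal replicate numbers pair the libraries. The differences between replicates 1 and 2 correlated at -0.109 between groups over 33161 regions, so no shared replicate effect was seen. A replicate block with crossed pairing, added after seeing the data, gave 5461 changed regions and 0 of the 667. A value of 100 in mdx replicate 1 has a counting SD of 11.8%, and the part of depth in these counts was not tested.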
